A study of Caenorhabditis elegans with 2 samples.

Results

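On the X chromosome of Caenorhabditis elegans, the deposited peak list for LIR-3 held 292 peaks that passed a signal cut and lay away from annotated gene starts. LIR-3 belongs to the same family of zinc-finger proteins as LIN-26. The 292 regions were taken from the list called on both replicates together on build ce11, which holds 20360 peaks and by design includes background. They are the X peaks with a signal score of at least 45 whose summit lies in no window from 500 bp upstream to 200 bp downstream of a gene start in the Ensembl annotation of the same assembly, with piRNA genes ignored. X had 641 peaks at or above that score, so the 292 are 45.6% of them, compared with 55.1% (1423 of 2582) of autosomal peaks. The signal score and the position chose the regions, so their scores are given as a description and were not tested.

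The measurement was chromatin immunoprecipitation followed by sequencing, on whole animals. The description in the labels gives an antibody against GFP, while their antibody field reads lir-3. All libraries form 1 group with 2 biological replicates: L4 hermaphrodites of strain OP312, which is unc-119(ed3) III and carries wgIs312, a transgene that stably makes LIR-3 with a GFP-FLAG tag at its C-terminus. They were collected 48 hours after larvae starved at the L1 stage were fed. A whole animal mixes all tissues, and a mock or untagged precipitation was not analysed here. The lists give no counts of reads, so the depth is unknown. Scores are the authors' own on a scale that is not stated, so they rank peaks within 1 list only. Intervals on shares are 95% Wilson intervals and cover counting error over peaks only.

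As background, hermaphrodites carry a pair of X chromosomes and reduce transcription from both of them through the dosage compensation complex, a condensin-like complex that coats X. The complex loads at a limited number of recruitment sites, which carry clusters of a short DNA motif, and then spreads along the chromosome. The 8-base core of that motif, GCGCAGGG, was among 8 motifs searched on both strands around the summits.

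The core was found near 13 of the 292 X summits (4.45%, 2.62 to 7.47), within 100 bp, and near 1 of the 1423 autosomal summits chosen by the same rule (0.0703%, 0.0124 to 0.397). The odds ratio was 66.0, with an exact interval from 9.85 to 2818, and a two-sided Fisher's exact test gave p = 2.87e-09 after adjustment over the 6 shares compared. Over all 3223 nuclear peaks at or above 45 the share was 0.621%, and over all 88153 end-to-end windows of the same 201 bp along X it was 0.0851%. Autosomal windows held it at 0.0553%. Among intergenic summits alone it was at 9 of 130 on X and 1 of 336 on autosomes (odds ratio 24.7, adjusted p = 0.000381 by Fisher's exact test). Without the 14 members that score above 250 it was at 5 of 278 (odds ratio 25.9, adjusted p = 0.00177 by Fisher's exact test). Without all peaks that overlap the list of reproducible (IDR) peaks it was at 1 of 246 members, and the difference was no longer called (odds ratio 5.50, adjusted p = 0.853 by Fisher's exact test). These 3 comparisons were added after the data were seen. The motifs, the core among them, were themselves picked when earlier results of these data were known. The unit of these tests is the peak, and neighbouring peaks are not independent.

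The sequences at the 13 members are shown on the strand that reads the core, in 40 bases with the core in capitals, because the core is the sequence feature whose share was called different between X and autosomal peaks. Members are numbered by signal, and those past the fifth with a core were chosen after their values were seen. They are ordered from strongest to weakest, and members 3, 4 and 11 by signal have a pair each. Sequence and coordinates are from the RefSeq record of the assembly.
Member 1, X:14525884-14525923, minus strand: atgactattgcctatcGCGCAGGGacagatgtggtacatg
Member 3, X:6296532-6296571, plus strand: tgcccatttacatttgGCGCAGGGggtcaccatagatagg
Member 3, X:6296560-6296599, plus strand: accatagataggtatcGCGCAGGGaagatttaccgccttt
Member 4, X:11094109-11094148, minus strand: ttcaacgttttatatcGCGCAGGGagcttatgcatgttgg
Member 4, X:11094210-11094249, minus strand: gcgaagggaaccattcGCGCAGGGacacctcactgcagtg
Member 7, X:4209250-4209289, minus strand: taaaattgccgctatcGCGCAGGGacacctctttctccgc
Member 8, X:2997107-2997146, minus strand: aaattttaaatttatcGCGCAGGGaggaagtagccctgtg
Member 10, X:5429574-5429613, plus strand: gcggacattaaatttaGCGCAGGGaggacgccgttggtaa
Member 11, X:806658-806697, plus strand: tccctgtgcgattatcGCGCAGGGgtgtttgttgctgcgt
Member 11, X:806734-806773, plus strand: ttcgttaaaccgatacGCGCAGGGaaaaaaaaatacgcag
Member 14, X:16682156-16682195, minus strand: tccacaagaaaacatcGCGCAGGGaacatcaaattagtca
Member 15, X:1345040-1345079, plus strand: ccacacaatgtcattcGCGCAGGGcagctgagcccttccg
Member 18, X:2364883-2364922, minus strand: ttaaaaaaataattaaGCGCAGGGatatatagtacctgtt
Member 25, X:1837876-1837915, plus strand: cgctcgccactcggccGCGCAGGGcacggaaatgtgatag
Member 29, X:4395599-4395638, plus strand: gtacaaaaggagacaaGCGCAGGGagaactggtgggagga
Member 44, X:13514542-13514581, plus strand: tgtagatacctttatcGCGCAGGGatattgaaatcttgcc

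Cores lay close to the summits. Within 200 bp of a summit there were 17 copies at 14 members, the extra one being member 5, whose copy is centred 153 bp from its summit. The median distance of the 17 copies was 33 bp, and 13 were within 50 bp. Both orientations occurred, 9 copies on the plus strand and 8 on the minus strand. The whole of X carries 81 copies (4.57 per Mb) and the autosomes 233 (2.82 per Mb). Of the X copies, 17 were within 200 bp of a member and 4 within 200 bp of a peak at a gene start.

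**Figure D1:**
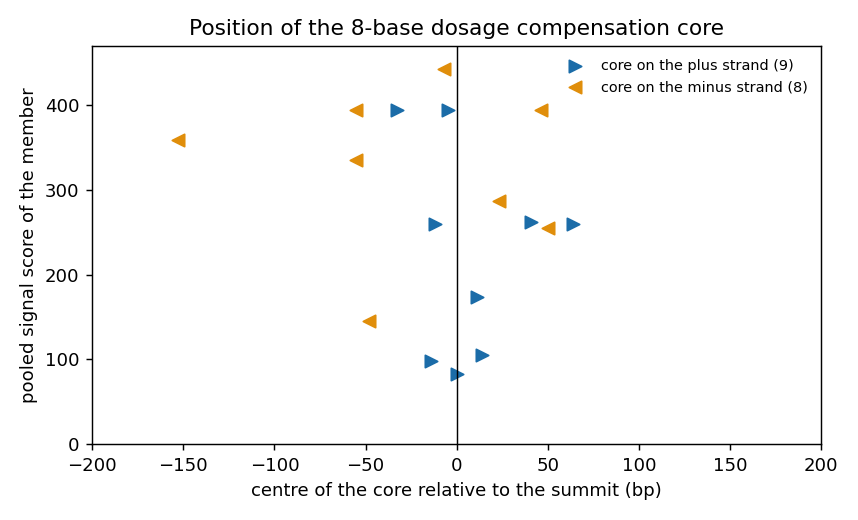
The horizontal axis is the distance in bp from a member's summit to the centre of a GCGCAGGG core, the vertical axis the pooled signal score of that member, and each triangle is 1 of 17 copies, coloured by strand. The median distance is 33 bp, and 1 copy lies 153 bp to the left of its summit.

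A consensus of 12 bases, the core GCGCAGGG with TC before it and AG after it, was searched on both strands and so overlaps the core. It was added after the data were seen. It matched within 100 bp of the summit without a mismatch at 2 members, the fourth and the eighth strongest, and with at most 1 mismatch at 10. With at most 2 mismatches it matched at 16 of 292 members (5.48%) and at 19 of 1423 autosomal peaks (1.34%), with an odds ratio of 4.28 and an adjusted p of 0.000184 by Fisher's exact test. The sixth and the twelfth strongest members carry no exact core but come within 1 and 2 mismatches of the consensus.

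A small group of members stood far above the others in signal. The scores of all 292 ran from 45.02 to 443, with a median of 54.0 and an upper quartile of 68.5, and 190 were below 60. The 14 strongest ran from 255 to 443, and the next highest score was 174. Above 250 the whole nuclear genome had 30 peaks: these 14, 3 at X gene starts, 12 at autosomal gene starts and 1 away from gene starts on an autosome. The median of the autosomal peaks of the same rule was 51.7 and that of the X peaks at gene starts 75.6, all among peaks cut at the same score. Of the 14, 8 had a core within 100 bp, and of the 27 further members that are IDR peaks, 4 did.

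**Figure D2:**
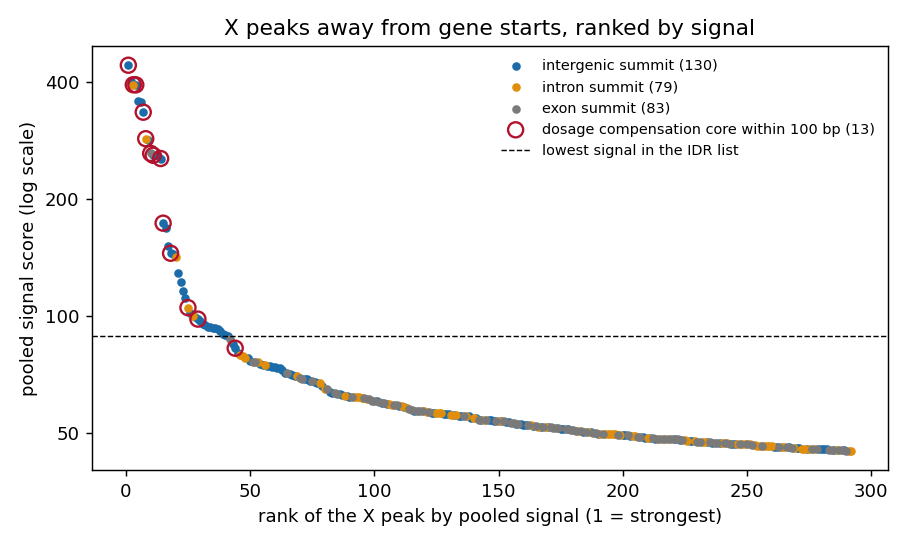
The horizontal axis ranks the 292 members by pooled signal and the vertical axis gives that score on a log scale; colours give the location of the summit, red rings the 13 members with the dosage compensation core within 100 bp, and the dashed line the lowest score in the IDR list, 88.9. The 14 leftmost points lie between 255 and 443, apart from the rest, and most ringed points are among the strongest members.

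Most of the 14 lay between genes: 11 had an intergenic summit, 2 were in introns and 1 in coding sequence. None of the 11 was between divergent genes, 4 were between convergent and 7 between tandem genes. Their distance to the nearest gene start ran from 730 to 10006 bp, with a median of 1854 bp. They were spread along X, with gaps between neighbours of 425626 to 3169265 bp and a median of 1.21 Mb.

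The strongest member, X:14525682-14526100, lay between nspc-17 and nspc-18, members of a family of small nematode-specific genes, with a score of 443 in the pooled list, 286 in replicate 1 and 164 in replicate 2. The second, X:9465712-9465987 between ZK899.6 and ZK899.10, scored 404, 229 and 175 in the same order. Its summit has no core, and within 100 bp the consensus is matched no better than with 3 mismatches. The third, X:6296405-6296777, scored 395, 254 and 151. It lay in an intron of mom-1, which encodes a Porcupine-type acyltransferase needed to secrete Wnt proteins.

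The fourth, X:11093986-11094338 between W04G3.11 and the tRNA gene W02H3.t1, scored 394 in the pooled list, 222 in replicate 1 and 176 in replicate 2. Its summit window on the plus strand is printed in full because it holds a pair of cores, in capitals, 1 on either side of the summit and both reading on the minus strand.
Member 4, X:11094124-11094244, plus strand: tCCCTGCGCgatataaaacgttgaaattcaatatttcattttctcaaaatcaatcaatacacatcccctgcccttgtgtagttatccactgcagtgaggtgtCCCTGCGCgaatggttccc

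Members 5 and 6, X:12363031-12363323 between F19H6.6 and F19H6.5 and X:16056418-16056812 between T27A8.7 and T27A8.8, scored 359 and 357. The seventh, X:4209120-4209463, scored 335, with 210 in replicate 1 and 122 in replicate 2. It lay beside hpk-1, which encodes a homeodomain-interacting protein kinase. The eighth, X:2996969-2997235, scored 287 and was in an intron of Y41G9A.17. The ninth, X:13700724-13700991 between K02D3.5 and K02D3.1, scored 285.

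The tenth was the only one of the 14 in an exon. X:5429448-5429635 scored 263, with 156 in replicate 1 and 109 in replicate 2, and its summit was in coding sequence of pks-1, a very large polyketide synthase gene, 10006 bp from the nearest gene start. The eleventh, X:806575-806815 between gtr-1 and F25E2.2, and the twelfth, X:1627051-1627266 between H11E01.2 and fbxb-58, both scored 260. The remaining strong members, X:11937467-11937681 between F55G7.6 and F55G7.5 and X:16682017-16682224 between F22H10.2 and F22H10.5, scored 259 and 255. All 14 were within the 55 strongest peaks of replicate 1 and the 60 strongest of replicate 2, and their summits moved by at most 40 bp between the pooled list and either replicate.

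Widths were set by the processing for nearly all peaks. In the pooled list 20259 of 20360 peaks were exactly 416 bp wide with the summit 208 bp from the start, and 101 had another width. Among the members 277 had the fixed width. The other 15 were the 15 strongest, from 119 bp (X:1344959-1345077, between ins-39 and F21E9.6, score 174, 126 in replicate 1 and 54.8 in replicate 2) to 419 bp at the strongest, with a median of 268 bp. The highest score of a member of the fixed width was 169, at X:10568492-10568907 between F59F5.7 and bet-2, which encodes a bromodomain protein and was named after its values were seen.

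Members were more often intergenic than the autosomal peaks chosen by the same rule. Of 292 summits, 130 (44.5%, 38.9 to 50.3) were intergenic, against 336 of 1423 on autosomes (23.6%, 21.5 to 25.9). The odds ratio was 2.59, from 1.98 to 3.40, and its adjusted p was 1.28e-11 by Fisher's exact test. Over both sets together 27.2% were intergenic. X also has more intergenic sequence: outside the start windows, intergenic bases are 37.9% on X and 27.6% on autosomes. Introns held 79 members (27.1%, 22.3 to 32.4) and 28.8% of the autosomal peaks, and the odds ratio of 0.916 had an interval from 0.681 to 1.22 (adjusted p = 0.684, Fisher's exact test). The remaining 83 members (28.4%) were in exons, against 47.6% on autosomes, and exonic bases outside the windows are 27.7% and 33.4%. The number of peaks per Mb outside the start windows was 20.5 on X and 21.3 on autosomes. The part of the base content in the difference in location was not tested.

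**Figure D3:**
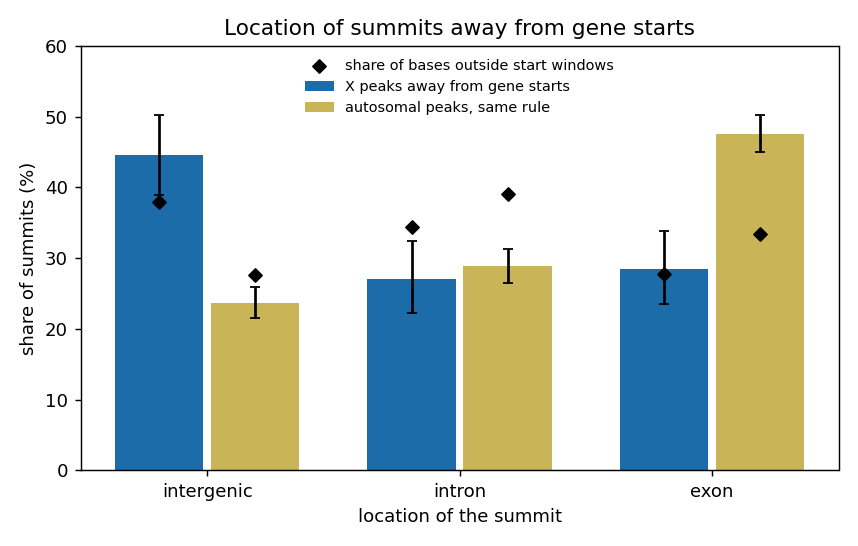
Bars give the share of summits in percent that are intergenic, in introns or in exons, for the 292 X members and the 1423 autosomal peaks of the same rule, with 95% Wilson intervals; diamonds give the share of bases outside the start windows. Intergenic summits are 44.5% on X and 23.6% on autosomes, and the diamonds are 37.9% and 27.6%.

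The scores by location are given as a description, since the score chose the members. Intergenic members had a median score of 61.2, intronic members 49.8 and exonic members 51.2. Of the 41 members whose summit is also an IDR summit, a class set by the same score, 35 were intergenic, 5 intronic and 1 exonic. Of the 246 that overlap no IDR peak, 91 were intergenic, 74 intronic and 81 exonic. With a rule of at least 60 on both X and autosomes, 64.7% of 102 members were intergenic and 18.6% intronic. The intronic share on X was then called lower than that on autosomes (odds ratio 0.519, adjusted p = 0.0259, Fisher's exact test).

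The intergenic stretches that hold the 130 intergenic members were 183 to 14383 bp long, with a median of 3518.5 bp, and the rule itself leaves out summits close to gene starts. Tandem neighbours flanked 65 of them, convergent neighbours 35 and divergent neighbours 30. Of the 83 exonic members 62 were in coding sequence, 14 in a 3′ untranslated region, 2 in a 5′ untranslated region and 5 in a noncoding exon. After pks-1, the highest exonic scores were at dhs-25, a short-chain dehydrogenase gene (87.3), at zfp-3, a zinc-finger gene (76.5), at the ncRNA gene C30E1.9 (76.1) and at the collagen gene col-175 (71.4). Over all members the distance to the nearest gene start ran from 209 to 11090 bp with a median of 1399.5 bp, and 108 (37.0%) were within 1000 bp of one.

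Genes hosted 162 of the members, 158 of them protein-coding, and 18 of the 145 host genes held more than 1. The overlapping genes ZC8.6 and lfi-1 held the same 2 members and are counted separately among the 18. The heterochronic gene lin-14, which encodes a transcription factor of larval timing, held 4, all in introns and within 4254 bp. Their scores in order along the gene were 48.7, 46.3, 78.1 and 48.4. The strongest, X:11473244-11473659, scored 36.5 in replicate 1 and 36.9 in replicate 2, and the weakest was missing from the list of replicate 2. The S-adenosylmethionine synthetase gene sams-1 held 3, with scores of 63.5, 53.2 and 45.3, the first in coding sequence and the second in a 3′ untranslated region. ZK470.2 held 3 (47.5 to 62.0) and F46H5.3 held 3 (47.4 to 51.4). Pairs were in ajm-1, which encodes an apical junction protein (47.6 and 56.4), in the dynamin gene dyn-1 (46.6 and 69.0), in the autophagy gene atg-2 (55.6 and 59.2) and in zfp-3 (53.1 and 76.5). The intervals of the zfp-3 pair overlapped each other, with summits 224 bp apart. So did those of the pairs in acdh-10 (232 bp) and col-164 (208 bp), so not every pair is separate regions. Members in the 18 genes scored 78.1 or less, and none of the 18 genes had a member that overlaps an IDR peak.

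Spacing along X was uneven. The 291 gaps between neighbouring summits had a median of 31789 bp, with quartiles of 9743.5 and 82414 bp, while even spacing would give 60681 bp. A neighbour within 10 kb was present for 125 members (42.8%, 37.3 to 48.5) and within 1 kb for 22 (7.53%). Some of these neighbours are overlapping intervals, among them the pair with the smallest gap, 200 bp. With overlapping intervals merged, 113 of 285 had a neighbour within 10 kb. Linked by gaps of at most 10 kb, members formed 51 groups and 167 stood alone. With the stricter score of 60, 10 of 102 members had such a neighbour. No comparison with random positions was made.

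**Figure D4:**
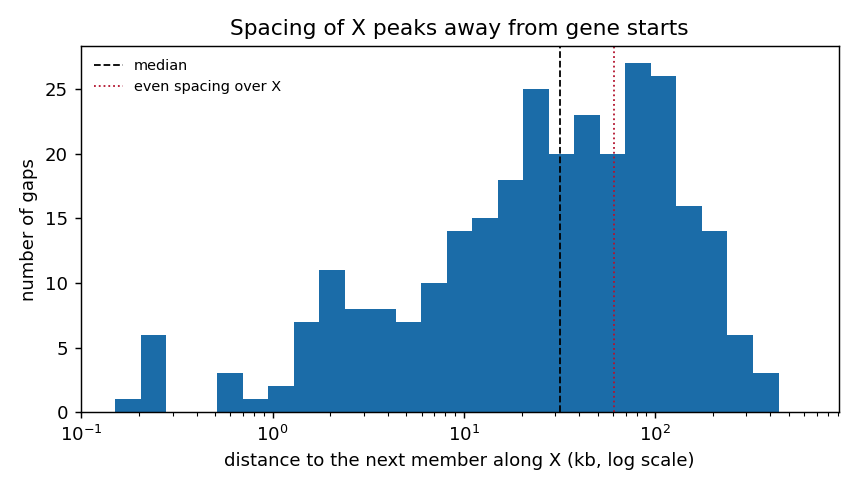
The histogram shows the 291 distances from each member to the next along X, in kb on a log scale, with the number of gaps on the vertical axis. The dashed line is the median, 31789 bp, the dotted line the even spacing of 60681 bp, and the distances run from 200 bp to 422446 bp.

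The largest group had 6 members within 12524 bp, X:6737586-6750525, between R03E9.6 and irk-1 and across mdl-1, a relative of the Mad transcription factors, and abts-4, an anion transporter gene. Their scores ran from 49.7 to 102. The 6 are not all separate regions: a pair of intervals with summits 248 bp apart overlapped each other. Another pair with summits 269 bp apart did too. The 2 members that overlapped an IDR peak were the pair 248 bp apart, and only the stronger had an IDR summit. Groups of 4 were in and beside ZK470.2 (span 3412 bp), in and beside sams-1 (3752 bp) and in lin-14 (4254 bp). Others of 4 lay between T14G12.8 and T14G12.11, across cel-mir-266 and T14G12.12 (8621 bp), and around hpk-1 (13685 bp, including the seventh strongest member). The widest gap, 422446 bp, began at the member in pks-1 and ended at a member of score 57.0. The next widest were 353683, 326112, 305072 and 290158 bp, and the gap of 326112 bp ended at the fourth strongest member.

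Cut from left to right into 5 parts of equal length, X held 59, 55, 45, 51 and 82 members, so the right end had the most (28.1%). All pooled X peaks were spread as 18.9%, 20.3%, 18.2%, 19.8% and 22.8%. X peaks at gene starts were fewest in the first of these (41 of 349). Members scoring above 250 numbered 3, 3, 1, 4 and 3 in the same order. Members were 42734 bp from the nearest tRNA gene start in the median, and the nearest was at 212 bp. The nearest belongs to X:15297475-15297890, which scored 142 (74.8 in replicate 1 and 73.7 in replicate 2) in an intron of ser-2, a tyramine receptor gene, and it was named after its values were seen. Only 3 members overlapped an X peak at a gene start, and merging overlapping intervals left 285.

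Most members had a peak in both replicate lists. A peak of the replicate list overlapped 284 members (97.3%) in replicate 1 and 273 (93.5%) in replicate 2. Both lists had 265 (90.8%, 86.9 to 93.6), and over all nuclear peaks at or above 45 the share was 92.4%, so the members were near the background. No member was missing from both, and the 27 missing from 1 list had scores of 45.3 to 57.3. Each replicate list was then limited to its 3246 strongest peaks, the number that the pooled list has at or above 45. A peak remained at 194 members (66.4%) in replicate 1 and at 178 (60.96%) in replicate 2. Both had a peak at 116 members (39.7%, 34.3 to 45.4), at 28.5% of the autosomal peaks of the same rule and at 64.8% of X peaks at gene starts. The pooled list was called on the same reads, so these counts are no independent measure.

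Ranks in the replicate lists were compared over the members that both hold. Across the 265 members in both lists Spearman's rho of the ranks was 0.409, across 1304 autosomal peaks of the same rule 0.0546 and across 329 X peaks at gene starts 0.711. These are descriptions over peaks that share the libraries and were selected by the pooled score, not tests. Median ranks were 1873 in replicate 1 and 2247 in replicate 2. Where a member overlapped several replicate peaks the highest was taken, so a weak member beside a strong one can carry that one's rank. Summits in the replicate lists were a median of 17.5 bp (replicate 1) and 15.0 bp (replicate 2) from the pooled summit.

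**Figure D5:**
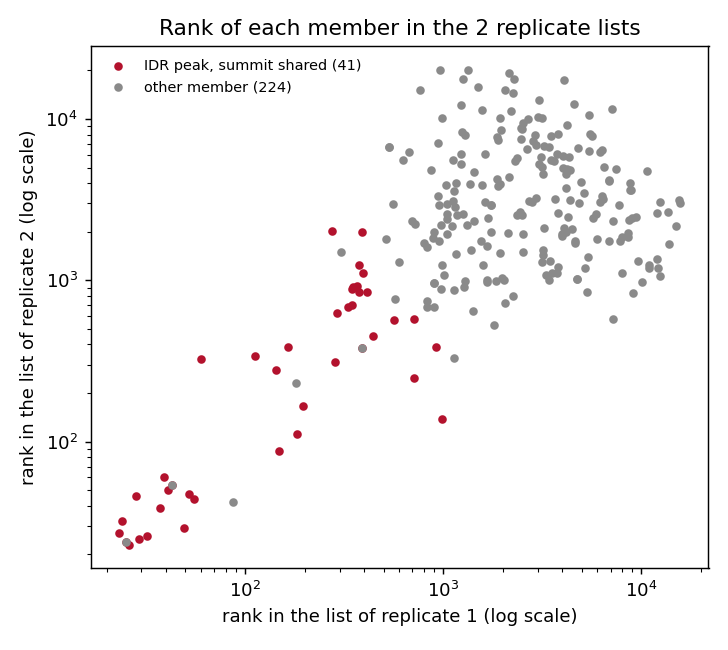
Each point is 1 of the 265 members present in both lists, with its rank among all peaks of replicate 1 on the horizontal axis and of replicate 2 on the vertical axis, both log scales. Red points are the 41 whose summit is an IDR summit; they reach rank 986 in replicate 1 and 2027 in replicate 2, and the other members spread to rank 15757 and 20208.

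Of the 292 members, 46 (15.8%, 12.02 to 20.4) overlapped a peak of the optimal IDR list, which keeps the reproducible peaks. The share was 17.8% over all nuclear peaks at or above 45, 5.06% (72 of 1423) over the autosomal peaks of the same rule and 39.8% (139 of 349) over X peaks at gene starts. The IDR list is the highest-scoring part of the same pooled list, with a lowest score of 88.9, so this count restates the score and was not tested. The summit was the same for 41, and the other 5 members, with scores of 45.5 to 60.1, only overlap the interval of an IDR peak. Among the 41 below the strongest 14 were X:1837674-1838089 in an intron of the pseudogene T26C11.3 (score 105, with a core), X:10637333-10637748 in an intron of the nuclear hormone receptor gene daf-12 (score 100.5), and X:1454399-1454814 beside cebp-1, a bZIP transcription factor gene (score 93.6).

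At the edge of the rule, the 3 members just inside scored 45.02 (X:16144753-16145168, intron), 45.07 (X:4216297-4216712, intron) and 45.12 (X:5105999-5106414, exon). The 3 X peaks just outside scored 44.95, 44.93 and 44.91, all in exons, at X:8805599-8806014, X:17131200-17131615 and X:15267680-15268095. None of the 6 overlapped an IDR peak.

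For the B box and GAGAGAGA no difference from autosomal peaks was called under the rule used here, but both were called lower on X under other settings. The B box of tRNA genes, searched as GTTCNANNC within 50 bp, was at 8 members (2.74%) and at 57 autosomal peaks (4.01%; odds ratio 0.675, 0.275 to 1.44; adjusted p = 0.599, Fisher's exact test). At a score of at least 60 the odds ratio was 0.204 (adjusted p = 0.0259, Fisher's exact test). X peaks at gene starts had it at 27.5% and X windows of the same 101 bp at 3.82%. GAGAGAGA was at 6 members (2.05%) and at 57 autosomal peaks (odds ratio 0.503, 0.175 to 1.18; adjusted p = 0.249, Fisher's exact test). When the start window reached 1000 bp upstream the odds ratio was 0.283 (Fisher's exact test, adjusted p = 0.0491). From the list of replicate 1 alone it was 0.292, without replicate 2 (adjusted p = 0.0474, Fisher's exact test). The soft-masked share of summits, repeat sequence by the reference's own masking, was 20.9% (61 of 292) and 21.9% on autosomes (odds ratio 0.944, 0.681 to 1.29; adjusted p = 0.756, Fisher's exact test), against 30.6% of all X bases.

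For the remaining motifs shares were only described, within 50 bp. The A box of tRNA genes, named without its letters because it is degenerate, was at 33 members (11.3%), 9.56% of autosomal peaks, 37.0% of X peaks at gene starts and 6.22% of X windows. CCCGCC was at 11 members (3.77%) and 1.35% of X windows, TGCGTCTC at 7 (2.40%) and 0.281%, CACACACA at 11 (3.77%) and 0.621%, and the T run TTTTTTTT at 15 (5.14%) and 11.7%. Shares on autosomal peaks were 3.51%, 2.46%, 2.32% and 6.11% in the same order. Of the 14 strongest members TGCGTCTC was at 1, the T run at 1 and the A box at 1, while the B box, GAGAGAGA, CCCGCC and CACACACA were at 0. The GC content within 50 bp of the summit had a median of 46.5% (42.6% at the 14 strongest), against 45.5% at autosomal peaks and 35.2% over X.

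The strongest member with a B box is printed as the leading case of another motif tested. It is X:4453078-4453493, between mltn-13 and F02E8.4, with a score of 78.1, 33.0 in replicate 1 and 45.4 in replicate 2, and capitals mark the B box.
Member 49, X:4453236-4453336, plus strand: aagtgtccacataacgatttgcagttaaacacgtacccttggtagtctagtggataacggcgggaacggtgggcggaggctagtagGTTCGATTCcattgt
The A box and CCCGCC also matched within 50 bp of the summit of member 49 and are not marked. No gene start of the annotation lies in the window around its summit, by the rule that chose it. Members with CACACACA were led by X:3127597-3128012 beside the spectrin gene spc-1 (score 129), X:16612382-16612797 beside ain-1, a GW182-family gene of the microRNA pathway (score 123), and X:4222802-4223217 between W01H2.11 and W01H2.8 (score 116, with 40.2 in replicate 1 and 79.2 in replicate 2).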

How the data were processed

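ChIP-seq peak lists in narrowPeak format on build ce11 were used: the list of each replicate, the list called on pooled replicates and the optimal IDR list derived from them, which name a control alignment, per the submitters' own listing of files. For the aligner and the peak caller, names and versions were not given in the sources used here. The signal value is a score the authors deposited. The −log10 of a q-value was also deposited, but it was used in no selection or test. The summit is the deposited start plus offset. Coordinates are 1-based. Gene starts and locations came from Ensembl release 115 (WBcel235, the coordinates of ce11) without piRNA genes, and sequence and soft-masking from RefSeq. A summit in any exon counted as exonic, otherwise in any gene as intronic. Overlap meant 1 bp or more.

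The 6 shares were set against autosomal peaks of the same rule (Fisher's exact test, two-sided, Benjamini-Hochberg adjustment). Nothing says how separate the 2 cultures were. The rule named the strongest members, those at the threshold, the largest groups and gaps, hosts with several members, leading exonic members and leading members per motif; not all are printed. The members, lists and motifs were chosen with earlier results of these data known. Functions were tested on simulated data. Alternatives were other scores, windows, overlaps and single replicates. The lists on the older build ce10 were not used here. Tests ran in scipy 1.17.1 under Python 3.11.15, tables in pandas 2.3.3 and numpy 2.4.6, and plots in matplotlib 3.10.9.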

Additional observations from a re-analysis of the deposited data

How the results depend on the processing

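No paired analysis was possible because all samples form 1 group. A score of at least 60 in place of 45 left 102 members, with 18.6% in introns, 64.7% intergenic, 100% in both replicate lists and 10 with a neighbour within 10 kb. At that score the odds ratio of X against autosomes was 0.519 for introns (adjusted p = 0.0259) and 0.204 for the B box (2 of 102 members, adjusted p = 0.0259), both now past the threshold by Fisher's exact test. A window of 1000 bp upstream gave an intergenic share of 35.7% and an odds ratio of 0.283 for GAGAGAGA (adjusted p = 0.0491, Fisher's exact test). From 1 replicate's list alone, members numbered 290 to 325 and the odds ratio for GAGAGAGA was 0.292 to 0.642, past the threshold without replicate 2 (adjusted p = 0.0474, Fisher's exact test). The share in both lists was 84.9% with 50% reciprocal overlap and 39.7% among the strongest peaks of each list. The core's odds ratio was 5.50 without peaks overlapping an IDR peak, with an interval from 0.0699 to 432.8. The causes were not tested, except that a higher score leaves fewer members. Of 84 alternative values 71 kept their direction, their side of the threshold or their size. Under another score, a wider window, single replicates, merged intervals and without chromosome IV, the lower limit of the odds ratio for the core was 7.40 to 14.4, and for intergenic summits 1.68 to 2.79. Depth is unknown, so weak members cannot be told from background by counts.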

Other observations

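Of the 81 copies of GCGCAGGG on X, 33 were within 200 bp of any summit of the pooled list, and on the autosomes 33 of 233 were. Among the 1947 X peaks away from gene starts that score below 45, 7 had a copy within 100 bp (0.36%), and 1 matched the consensus of 12 bases without a mismatch. At the 349 X peaks at gene starts 3 had a copy. By location, the core was at 9 of 130 intergenic, 3 of 79 intronic and 1 of 83 exonic members. Members with the core had a median score of 260 and the others 53.6, and 12 of the 13 overlapped an IDR peak.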
